A study of Mus musculus with 9 samples.

Results

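The 9 transcripts described here are noncoding RNAs of the nucleus and noncoding host genes of small nucleolar RNAs (snoRNAs), namely Malat1, Neat1, Gas5, Snhg1, Snhg3, Snhg5, Snhg6, Snhg8 and Snhg12. They were chosen by name, and each has 1 of the 28052 gene rows of a count matrix from growing mouse oocytes. The matrix holds 9 pools, with 3 replicates of each genotype (XX, XO and XY), taken from females labelled C57BL/6 at 18 days post partum (dpp). Each pool combined 30 oocytes, 10 of them 50 to 55 µm and 20 of them 55 to 60 µm in diameter. Ovaries were broken up with collagenase and trypsin in every group. XY females and the XX females born with them were sired by B6.YTIR males, which carry a Y chromosome of Mus musculus domesticus origin on the C57BL/6J (B6) background and whose XY offspring can form ovaries. XO females were sired by males carrying Paf, a mutation on the X chromosome, brought from C3H/HeSnJ onto B6 by backcrossing. The XO group therefore differs from the others in its cross as well as in its sex chromosomes, and the contribution of each cannot be told apart. The samples are called biological triplicates, and no source used here says how animals were divided among the pools, so p-values measure the spread between these pools.

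Malat1 is an abundant long noncoding RNA of nuclear speckles, the bodies in which splicing factors gather. Its 3' end is cut by RNase P, the enzyme that trims tRNA precursors, and ends in an A-rich tract held in a triple helix. Neat1, its neighbour on the chromosome, is the scaffold of paraspeckles. Gas5 and the Snhg genes carry snoRNAs in their introns, and snoRNAs guide the methylation or pseudouridylation of ribosomal and other RNAs. After splicing the intron gives the snoRNA, while the spliced host RNA of several of these genes, such as Gas5, is removed by nonsense-mediated decay during translation. Gas5 and Snhg1 belong with ribosomal protein genes to the 5'TOP class, whose transcripts begin with a run of pyrimidines. Growing oocytes make and store large amounts of RNA and ribosomes.

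All 9 genes lie on autosomes. Malat1 (ENSMUSG00000092341.2) occupies chr19:5795690-5802672 on the minus strand of GRCm38, and Neat1 lies next to it at chr19:5824708-5845478. Gas5 (ENSMUSG00000053332.13) lies at chr1:161034422-161038539 on the plus strand and Snhg1 (ENSMUSG00000108414.1) at chr19:8723475-8726443 on the plus strand. Snhg5 (ENSMUSG00000097195.9) lies at chr9:88521050-88522929 and Snhg6 at chr1:9941959-9944118, both on the minus strand. Snhg3 lies at chr4:132348014-132353686 on the minus strand, Snhg12 at chr4:132308678-132311024 on the plus strand and Snhg8 at chr3:123507552-123508404 on the minus strand. GENCODE vM21 places 29 snoRNA genes inside the 7 hosts, 10 of them in Gas5 and 8 in Snhg1.

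The start regions of the hosts are shown first, because 5 of them hold a TATA-like word at a similar place. RefSeq promoter windows on GRCm38.p6 were found for 7 of the 9 genes, all except Neat1 and Snhg6, and each was trimmed to 100 bases before and 50 bases from the start. Capitals mark the words TATAAA or TATATA on either strand (TTTATA is TATAAA on the other strand), and the longest run of only C and T within 20 bases of the annotated start, which is base 101 of each line. The second of 2 Gas5 windows is printed, as the one that holds such a word.
Gas5, chr1:161035066-161035215, plus strand: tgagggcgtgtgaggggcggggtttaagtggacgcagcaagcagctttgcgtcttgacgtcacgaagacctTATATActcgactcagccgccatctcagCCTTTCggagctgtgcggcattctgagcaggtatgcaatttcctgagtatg
Snhg1, chr19:8723387-8723536, plus strand: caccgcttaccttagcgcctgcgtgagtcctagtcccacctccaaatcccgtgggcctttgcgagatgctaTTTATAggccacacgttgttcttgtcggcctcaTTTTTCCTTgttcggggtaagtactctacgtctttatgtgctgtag
Snhg5, chr9:88522848-88522997, minus strand: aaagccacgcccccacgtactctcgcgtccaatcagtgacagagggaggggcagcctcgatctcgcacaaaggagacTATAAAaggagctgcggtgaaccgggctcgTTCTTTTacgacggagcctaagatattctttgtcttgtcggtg
Snhg8, chr3:123508287-123508436, minus strand: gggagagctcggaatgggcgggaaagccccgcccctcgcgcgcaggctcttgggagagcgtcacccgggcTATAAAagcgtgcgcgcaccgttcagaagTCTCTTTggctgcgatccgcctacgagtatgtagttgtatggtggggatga
Snhg12, chr4:132308578-132308727, plus strand: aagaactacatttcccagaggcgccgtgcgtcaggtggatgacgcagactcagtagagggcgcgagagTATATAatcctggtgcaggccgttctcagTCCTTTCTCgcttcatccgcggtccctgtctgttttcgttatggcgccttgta
Malat1, chr19:5802623-5802772, minus strand: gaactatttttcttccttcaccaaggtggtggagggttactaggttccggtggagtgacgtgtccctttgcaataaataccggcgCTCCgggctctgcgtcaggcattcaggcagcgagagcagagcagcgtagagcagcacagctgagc
The word stood 23 bases before the start in Snhg5, 29 in Gas5 and Snhg1, 30 in Snhg8 and 32 in Snhg12. It fell between 20 and 35 bases upstream in 5 of the 8 windows of these genes and in 2.92% of all 32851 mouse promoter windows of the same length. Anywhere in the window it occurred in 6 of 8 against 8.72% of all windows, the additional one being Snhg3, where it lies after the start. The pyrimidine run was 9 bases long in Snhg1 and Snhg12 and 7 in Snhg5 and Snhg8, and 10.7% and 24.3% of all windows have a run at least that long. In Gas5 it was 6 bases and in Snhg3 5 bases, lengths that 37.5% and 57.5% of all windows reach. The Malat1 window holds neither TATA word and its longest run is 4 bases. These matches describe letters and were not tested for any function.

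A snoRNA itself is short and, unlike its host, has no poly(A) tail. The 3 printed next belong to Gas5, the host with the most even level, and Snhg5, the host called between genotypes. They are of the C/D class, and capitals mark the box C word TGATGA and the box D word CTGA.
Snord47 in Gas5, chr1:161038082-161038158, plus strand: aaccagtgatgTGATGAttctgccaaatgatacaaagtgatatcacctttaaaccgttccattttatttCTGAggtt
Snord50a in Snhg5, chr9:88521529-88521600, minus strand: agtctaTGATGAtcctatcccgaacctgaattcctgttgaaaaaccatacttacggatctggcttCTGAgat
Snord50b in Snhg5, chr9:88521797-88521868, minus strand: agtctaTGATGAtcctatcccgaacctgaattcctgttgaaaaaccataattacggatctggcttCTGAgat
The Snhg5 pair matched at 71 of 72 positions and differed by the substitution C50A, with Snord50a as the reference and positions counted from its 5' end. The libraries were made by Smart-seq3 with oligo-dT priming, in which a unique molecular identifier (UMI) marks each captured RNA molecule at its 5' end. Of the 29 snoRNA genes, 9 had a row of their own, with 16 UMIs in all 9 pools. The values below are therefore those of the host RNAs and say nothing of snoRNA levels.

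Each pool gave 2130145 to 3157338 gene UMIs, and spike-in RNA of the External RNA Controls Consortium (ERCC) made up 0.204% to 0.862% of the total. All 12 oocyte markers were detected in every pool, Zp2 alone at 9501 UMIs or more, but their levels were uneven. Summed, they gave 35926, 62743 and 85419 UMIs in XO replicates 1, 2 and 3. The sums were 42408, 75897 and 80398 in XY and 75493, 74311 and 89388 in XX. In XO replicate 1 Figla had 1 UMI, Zp3 24, Zp1 27 and Padi6 410. In XO replicate 2 these had 25, 659, 1468 and 14069 UMIs. Oosp1 and Ddx4 were instead higher in XO replicate 1 than in the other XO pools. The 6 Y-linked genes checked separated XY from the other pools as labelled. The first replicates of XO and XY stood apart, since mitochondrial transcripts took 13.1% and 10.8% of their gene UMIs against 2.65% to 6.02% in the other 7 pools. For each tested member, values without XO replicate 1 stand beside those from all 9 pools where a call or a sign changed. Levels are in normalized CPM, UMI counts relative to the library total that the authors scaled with factors from the spike-ins.

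Divided by the length of merged exon, Snhg1, Gas5, Snhg5 and Malat1 had similar values. Their means over 9 pools were 14.6, 12.7, 12.6 and 10.4 normalized CPM per kb. Snhg3 followed with 4.19 and Snhg6 with 1.03 normalized CPM per kb. Snhg12 (0.179), Snhg8 (0.0794) and Neat1 (0.00579) were at the limit of detection. As each molecule carries 1 UMI, exon length may overcorrect this order. Merged exons pool all annotated transcripts and take in 26 of the 29 snoRNA genes, so they are longer than a spliced host RNA. The similar values per kb thus depend on the divisor. Undivided by length, the means were 72.7 normalized CPM for Malat1, 47.9 for Gas5, 43.4 for Snhg1 and 21.8 for Snhg5, so Malat1 came first here and after the other 3 per kb.

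**Figure D1:**
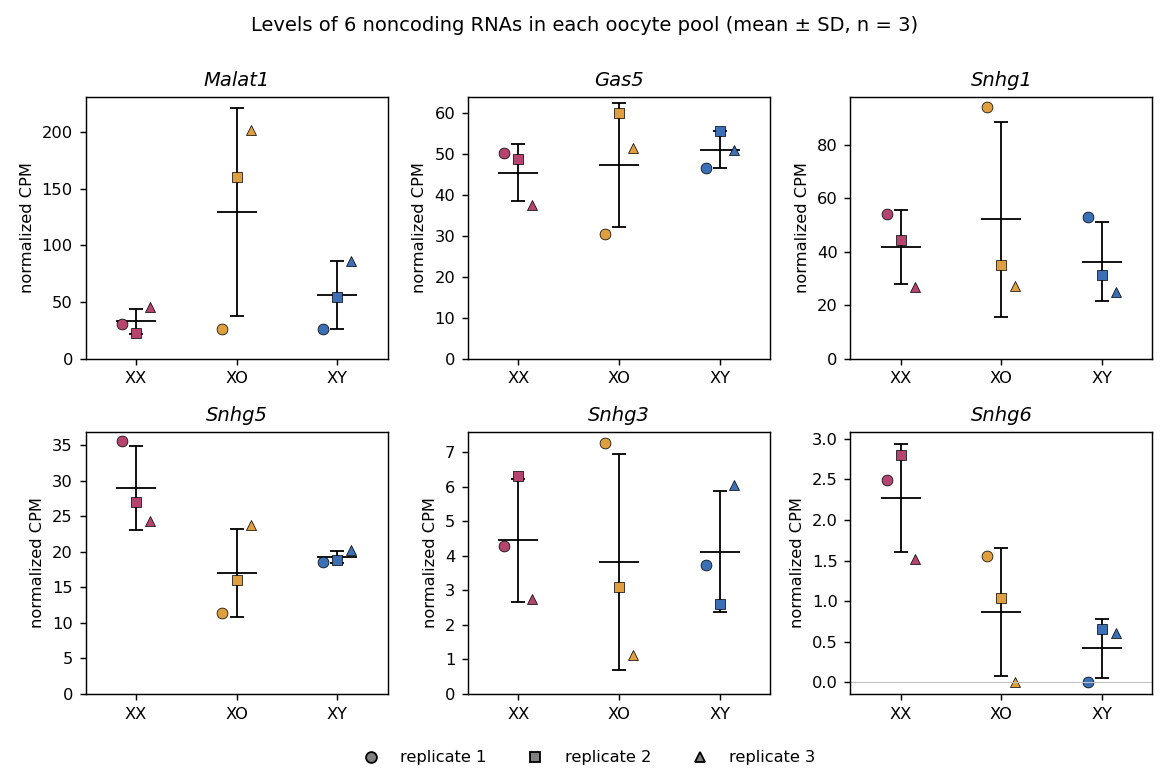
Normalized CPM (vertical axes, linear, each with its own range) of 6 noncoding RNAs in every XX, XO and XY oocyte pool. Symbols give the replicate number, horizontal bars the mean and whiskers the SD of 3 pools. Snhg5 was above 24 normalized CPM in the 3 XX pools and below it in the other 6, while Malat1 spread from 25.9 to 202 within XO. The share of all genes whose pools separate as those of Snhg5 was not counted.

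To ask how the sex chromosome complement affected these RNAs, the 3 genotypes were compared by edgeR's quasi-likelihood test over 10993 genes with the spike-in factors, calling a gene at an unadjusted p below 0.05 as the study did. Of the 9 genes, 5 (Malat1, Gas5, Snhg1, Snhg3 and Snhg5) had enough UMIs to be tested. Between XX and XO oocytes 2 of these 5 were called, Malat1 lower and Snhg5 higher in XX, where 18.1% of all genes tested were called, 16.7% lower and 1.40% higher in XX. In the XX to XY comparison 0 of 5 were called by edgeR, where 5.80% of all genes were (4.39% lower and 1.41% higher in XX). In the XY to XO comparison it was again 0 of 5, where 9.93% of all genes were called (8.24% lower and 1.69% higher in XY). Adjusted over all genes, 0 genes passed between XX and XO, while 9 and 4 passed in the other 2 comparisons, none of them in this set. With TMM (trimmed mean of M-values) factors computed on the genes, the members called were 2, 1 and 0, beside 12.2%, 5.14% and 9.01% of all genes in the same order. With no filter on low counts they were 1, 1 and 1 of 9, beside 14.1%, 4.33% and 9.75%. DESeq2 with its own size factors called 2, 2 and 0, beside 6.50%, 2.49% and 4.72%. With same-numbered pools treated as blocks edgeR called 2, 0 and 0, beside 23.0%, 9.16% and 16.6%, and with TMM factors as well 2, 1 and 0, beside 17.8%, 8.51% and 15.9%. The genes behind these calls were Malat1, Snhg5 and, where the filter was off or DESeq2 was used, Snhg6.

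The scaling bears on every direction below. With the spike-in factors the median gene was 0.46 lower on the log2 scale in XX than in XO, 0.19 lower in XX than in XY and 0.30 lower in XY than in XO. With the TMM factors these medians were -0.11, -0.01 and -0.13. Scaling to the spike-in totals turned the first pair to 0.42 and 0.49 and left the third at -0.11. In both comparisons of XX more genes were then called higher than lower in XX, 2.64% and 0.482% against XO and 2.22% and 0.364% against XY. In XY against XO 0.573% were higher and 0.664% lower. Fewer genes were called under the spike-in totals in each comparison, and individual calls were not followed between scalings. Of the 5 members 0 were called under these totals, where Malat1 differed between XX and XO by -1.04 (SE 1.03) and Snhg5 by 1.53 (SE 0.72). Changes are therefore also given relative to the median gene of the same comparison.

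Malat1 was the most variable of the tested RNAs. The XX pools had 30.6, 22.8 and 45.1 normalized CPM, from 86, 65 and 148 UMIs. The XO pools had 25.9, 160 and 202 normalized CPM, from 50, 310 and 358 UMIs. The XY pools had 26.5, 54.7 and 86.6, from 57, 168 and 287 UMIs. Replicate 1 of XO and of XY lay inside the XX range, and the other 2 pools of each lay above every XX pool. Mean levels were 32.8 ± 11.3 in XX, 129 ± 92.1 in XO and 55.9 ± 30.1 in XY (SD, n = 3 each). The XO mean was thus 3.94 times the XX mean, with overlapping pools.

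Between XX and XO, Malat1 fell by 1.98 on the log2 scale in XX (SE 0.70, edgeR adjusted p = 0.218), or by 1.52 relative to the median gene. With the TMM factors the log2 fold change was -1.53, also called (edgeR adjusted p = 0.380). The call rested on single pools, for it was kept in 6 of 9 fits that left out 1 pool and lost without XX replicate 1, XX replicate 2 or XO replicate 3. With TMM factors it was kept in 4 of 9, and was lost also without XO replicate 2 or XY replicate 2. Without XO replicate 1 the log2 fold change was -2.46 (edgeR adjusted p = 0.00405), and 36.9% of all genes were then called. XX and XY differed by -0.77 (SE 0.68, edgeR adjusted p = 1.00) and XY and XO by -1.21 (SE 0.68, edgeR adjusted p = 0.544), neither called. Without XO replicate 1 the latter became -1.69 and was called (edgeR adjusted p = 0.0277), with 32.1% of all genes called. The XX to XY difference was called in 2 other fits. It was -0.87 (SE 0.18, edgeR adjusted p = 0.00400) with 2 components recovered from the authors' batch correction as covariates, when 21.8% of all genes were called. These components were estimated from the same 9 pools and leave fewer residual degrees of freedom. The small SE and adjusted p of that fit are therefore no separate evidence for a difference. Without the 3 pools numbered 1 the difference was -1.05 (SE 0.38, edgeR adjusted p = 0.392), when 10.8% of all genes were called.

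Other values moved with Malat1 from pool to pool. Across the 9 pools, 15.5% of the other 10992 tested genes had a Pearson coefficient above 0.9 with Malat1 on the log2(normalized CPM + 1) scale. The closest were Gm10373 (0.998), Wdr83 (0.996) and Gm45645 (0.996). These coefficients are a description over 9 pools that share genotype, scaling and depth. The share of mitochondrial transcripts was highest in XO replicate 1 and XY replicate 1, where Malat1 was lowest for its genotype.

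Markers of other cells were examined in the same pools. Pecam1, an adhesion molecule of endothelium that is also known from germ cells, gave 87, 53 and 159 UMIs in XX, 28, 211 and 233 in XO and 47, 98 and 188 in XY, an order close to that of Malat1. Of the 8 blood and endothelium markers 5 had rows, and beside Pecam1 they were scarce, with at most 11 UMIs a pool for Cdh5 and 8 for Alas2, and 2 UMIs in total for Cd74 and for Lyz2. The summed level of the list ranged from 20.3 to 52.1 normalized CPM in XX, 19.7 to 133 in XO and 30.7 to 60.4 in XY. Theca and stroma markers were near 0, with 0.700 to 4.99 normalized CPM summed over the 5 measured. The part of these markers in the Malat1 difference was not tested, and in pooled oocytes fewer cells with a transcript cannot be told apart from less RNA per cell.

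Gm37376, annotated on the opposite strand inside Malat1 at chr19:5801941-5802393, had 23 UMIs in the XX pools, 70 in the XO pools and 42 in the XY pools, in the same order of genotypes as Malat1. Its level is uncertain beside the 1529 UMIs of Malat1.

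Neat1 was almost undetected. It gave 2 UMIs in the whole series, 1 each in XO replicates 1 and 3. The 0 UMIs of the XX and XY groups allow a level of up to 0.335 and 0.351 normalized CPM (3 UMIs over 3 pools, counting error only). No comparison of Neat1 between genotypes was possible with these counts. The libraries were primed with oligo-dT, and whether Neat1 RNA without a poly(A) tail escaped capture was not tested.

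Of the 5 tested RNAs, only Snhg5 had XX pools apart from both other genotypes in normalized CPM, by a narrow margin from XO. XX pools had 35.6, 27.0 and 24.4 normalized CPM, from 100, 77 and 80 UMIs. XO pools had 11.4, 16.0 and 23.7, from 22, 31 and 42 UMIs, and XY pools had 18.6, 18.9 and 20.2, from 40, 58 and 67 UMIs. Every XX pool lay above every XO and XY pool, though XX replicate 3 and XO replicate 3 were only 1.03-fold apart. The share of all genes tested whose pools separate in this way was not counted, here or for the genes below. The means were 29.0 ± 5.89 in XX, 17.04 ± 6.22 in XO and 19.2 ± 0.870 in XY (SD, n = 3 each).

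Snhg5 was higher in XX than in XO by 0.77 on the log2 scale (SE 0.32, edgeR adjusted p = 0.262), and by 1.22 relative to the median gene. The XX to XY difference was 0.59 (SE 0.32, edgeR adjusted p = 0.977), short of the threshold. With TMM factors on the genes both were called, at 1.16 (edgeR adjusted p = 0.268) and at 0.76 (edgeR adjusted p = 0.722). The XX to XO call depended on the scaling. Under the spike-in factors it was kept in 2 of 9 fits without 1 pool, those without XX replicate 3 or XO replicate 3, while under TMM factors it was kept in 9 of 9. Without XO replicate 1 the XX to XO value was 0.55 (SE 0.30), not called, whereas XX to XY stayed at 0.59 and was called with its smaller SE of 0.26 (edgeR adjusted p = 0.438), beside 11.1% of all genes. XY and XO differed by 0.18 (SE 0.32, edgeR adjusted p = 0.841), less than the spread between pools, and without XO replicate 1 by -0.042.

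A ratio of 2 transcripts in 1 pool needs no scaling factor. Snhg5 UMIs per Gas5 UMI were 0.709, 0.554 and 0.650 in XX, 0.373, 0.267 and 0.461 in XO, and 0.400, 0.339 and 0.396 in XY. The XX pools again did not overlap the others. This pair was chosen after its values were seen, so the ratio carries no test. The genes whose pattern was most like that of Snhg5 over the 9 pools were Lair1 (Pearson coefficient 0.969), Klhl28 (0.957) and Pdzd11 (0.951).

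Kitl, the Kit ligand of granulosa cells, was highest in XX, as Snhg5 was. It gave 40 to 63 UMIs in XX, 11 to 17 in XO and 28 to 36 in XY pools, and was higher in XX than in XO by 1.09 (called, edgeR adjusted p = 0.204). Within XX, Kitl was highest in replicate 3 (19.2 normalized CPM), where Snhg5 was lowest (24.4). Of 12 granulosa markers 9 had rows, and Kitl and Nr5a2 (41 to 114 UMIs) gave most of the sum. Nr5a2 was not highest in XX, with 31.0, 23.5 and 21.9 normalized CPM there. It had 42.5, 25.3 and 23.2 in XO and 51.6, 24.7 and 34.4 in XY. Fst, Inha and Gatm were at 0 in 8 of 9 pools, Amhr2 in 7 and Wt1 in 6. The summed level was 39.2 to 49.5 normalized CPM in XX, 37.7 to 52.3 in XO and 38.4 to 69.3 in XY, so the list as a whole overlapped between genotypes. Its part in the Snhg5 difference was not tested.

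**Figure D2:**
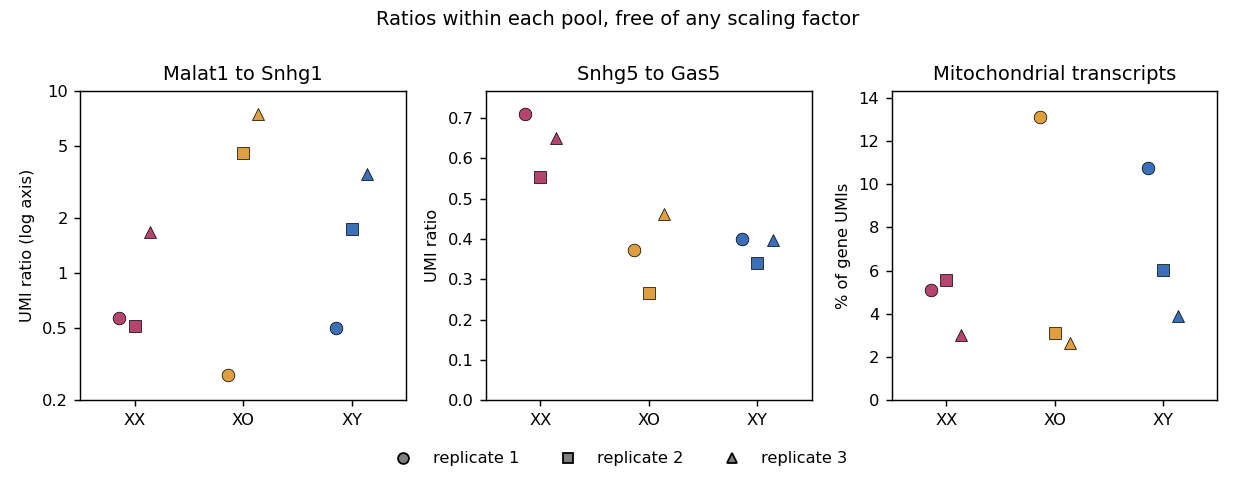
Ratios and shares computed within each pool, by genotype and with symbols for the replicate number. Left, Malat1 UMIs per Snhg1 UMI (log axis, 0.275 to 7.46). Middle, Snhg5 UMIs per Gas5 UMI (linear axis), with the 3 XX pools above the other 6, a pair chosen after its values were seen. Right, mitochondrial transcripts in % of gene UMIs, highest in replicate 1 of XO (13.1%) and of XY (10.8%).

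Gas5 had the most even level of the 5. The XX pools had 50.2, 48.7 and 37.5 normalized CPM, the XO pools 30.6, 60.0 and 51.4, and the XY pools 46.5, 55.7 and 51.0. All 3 genotypes overlapped, and the 9 pools had a coefficient of variation of 18.7%, against 90.0% for Malat1, 50.8% for Snhg1, 48.9% for Snhg3 and 32.1% for Snhg5. XX and XO differed by -0.06 (SE 0.30, edgeR adjusted p = 0.928), XX and XY by -0.17 (SE 0.30, edgeR adjusted p = 1.00) and XY and XO by 0.11 (SE 0.30, edgeR adjusted p = 0.897). With TMM factors the XX to XO value turned to 0.33 (SE 0.29) and the XX to XY value to 0.00445 (SE 0.28), neither called. The XY to XO value turned to -0.12 (SE 0.25) when XO replicate 1 was left out, and was not called. Zbtb37, a zinc finger gene on the opposite strand, overlaps the start of the Gas5 annotation and had 1287 UMIs. The closest patterns were those of Phf7 (Pearson coefficient 0.949), Tmcc3 (0.946) and Serpinb6a (0.941).

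Snhg1 levels overlapped between all 3 genotypes. The XX pools had 54.1, 44.5 and 26.8 normalized CPM. The XO pools had 94.2, 35.2 and 27.1, and the XY pools 53.0, 31.3 and 24.8. In each genotype replicate 1 was highest and replicate 3 lowest. The log2 fold changes were -0.32 for XX against XO (SE 0.51, edgeR adjusted p = 0.742), 0.21 for XX against XY (SE 0.51, edgeR adjusted p = 1.00) and -0.53 for XY against XO (SE 0.51, edgeR adjusted p = 0.703). Without XO replicate 1 the first and the last turned to 0.42 and 0.21, neither called.

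Malat1 and Snhg1 ran in opposite order within XO and XY. Malat1 UMIs per Snhg1 UMI were 0.566, 0.512 and 1.68 in XX, 0.275, 4.56 and 7.46 in XO and 0.500, 1.75 and 3.50 in XY. Replicate 1 was lowest and replicate 3 highest in XO and XY, and replicate 3 was highest in XX. This pair too was chosen after its values were seen. The closest patterns to Snhg1 were Nus1 (Pearson coefficient 0.987), Tbpl2 (0.986), the oocyte form of the TATA-binding protein, and Fbxo11 (0.979), and 3.67% of tested genes had a coefficient above 0.9 with it.

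Snhg3, host of the H/ACA snoRNAs Snora73a and Snora73b, was scarce. The XX pools had 12, 18 and 9 UMIs, the XO pools 14, 6 and 2 and the XY pools 8, 8 and 20. Mean levels were 4.44 ± 1.79, 3.83 ± 3.12 and 4.12 ± 1.75 normalized CPM in XX, XO and XY (SD, n = 3 each), and the pools overlapped. No comparison was called, with log2 differences of 0.19 (SE 0.63) from XX to XO, 0.09 (SE 0.61) from XX to XY and 0.10 (SE 0.64) from XY to XO. Without XO replicate 1 the first and the last were 1.02 (SE 0.67) and 0.94 (SE 0.67), not called, and with TMM factors as well the first was 1.48 (SE 0.64) and called (edgeR adjusted p = 0.128), beside 35.3% of all genes. Its counts are uncertain, since Rcc1 lies over it on the same strand with 159 UMIs. Gm17300, on the opposite strand inside it, had 8, 18 and 10 UMIs in XX, 14, 6 and 3 in XO and 8, 7 and 18 in XY, nearly those of Snhg3 itself, and was the gene most like it (Pearson coefficient 0.940).

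Snhg6 was too scarce for the count filter, with 29 UMIs in all. The XX pools had 7, 8 and 5 UMIs, the XO pools 3, 2 and 0 and the XY pools 0, 2 and 2. Mean levels were 2.27 ± 0.667, 0.862 ± 0.791 and 0.418 ± 0.363 normalized CPM, and XX overlapped XO by a narrow margin, 1.52 against 1.55 at the edges, but not XY. When the filter was left off, Snhg6 was higher in XX than in XY by 2.19 (SE 0.94, called, edgeR adjusted p = 0.874). It exceeded XO by 1.31 (SE 0.93), which was not called. Snhg12, with 1, 4 and 3 UMIs in XX, XO and XY, and Snhg8, with 2 UMIs in XX replicate 3, allowed no comparison.

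**Figure D3:**
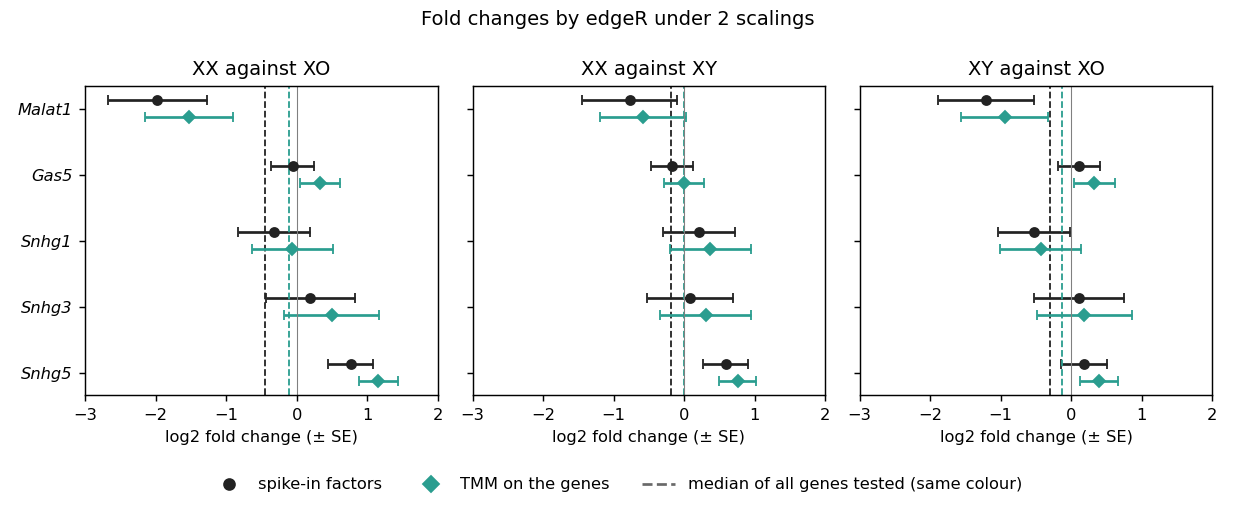
Log2 fold changes (points) with their standard errors (bars) of the 5 tested RNAs by edgeR, in 3 comparisons. Black circles use spike-in factors and green diamonds TMM factors on the genes, and dashed lines give the median of all genes tested under each. Malat1 lies left of the median line and Snhg5 right of it in each comparison under both scalings, and both were called between XX and XO.

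Other snoRNA host lncRNAs were few. Of 15 listed, 9 had rows and 4 were tested. In XX against XO 1 was higher and 0 lower, beside 1.40% higher and 16.7% lower of all genes. The higher one was Snhg4, at 34.6, 30.5 and 26.8 normalized CPM in XX, 9.84, 18.6 and 16.4 in XO and 47.4, 28.7 and 19.9 in XY. It was higher than in XO by 1.03 in XX (SE 0.38, edgeR adjusted p = 0.230) and by 1.09 in XY (SE 0.38, edgeR adjusted p = 0.485). The latter was also called, beside 1.69% of all genes higher in XY than in XO. Its XX pools lay above every XO pool, as those of Snhg5 did. Zfas1, with 16.1 to 21.7 in XX, 10.4 to 13.6 in XO and 10.9 to 19.5 in XY, missed the threshold between XX and XO (0.66, SE 0.32) and passed it with TMM factors (1.02). Of 8 other long noncoding RNAs tested, such as Kcnq1ot1 and Tug1, 0 were called in the 3 comparisons by edgeR with spike-in factors. With TMM factors 1, Firre, was higher in XX than in XO (0.96), beside 4.38% of all genes higher. These lists and those below were not divided into X-linked and autosomal genes. X-linked genes differ in copy number between XX and both other genotypes. No fold change in these lists, such as that of Firre here or Upf3b below, was adjusted for this.

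Protein-coding hosts of snoRNAs were called in 1 direction, lower in XX and XY than in XO. Of 35 tested, 10 were lower in XX than in XO and 0 higher, 7 were lower in XY than in XO and 0 higher, and 0 were called between XX and XY. Of all genes 16.7% were called lower in XX than in XO and 8.24% lower in XY than in XO. The median log2 fold change of the hosts was -0.71 between XX and XO and -0.58 between XY and XO, beside -0.46 and -0.30 for all genes. Rpl3, a protein of the large ribosomal subunit, had 26, 16 and 34 UMIs in XX, 17, 163 and 307 in XO and 10, 31 and 52 in XY. It was lower in XX than in XO by a log2 fold change of -3.39 (SE 0.88, edgeR adjusted p = 0.204), though XO replicate 1 lay among the XX pools. Rpl23a (-2.89), Rps2 (-2.76) and Ncl, the nucleolin gene (-1.14), were likewise lower in XX. With TMM factors 6 were lower in XX than in XO, these 4 among them, beside 7.86% of all genes lower. With spike-in totals 1 was lower, Rpl3, beside 0.482% of all genes, while the median of the hosts turned to 0.05 beside 0.42 for all genes. With XO replicate 1 left out, 19 were lower and 0 higher, beside 34.2% of all genes lower.

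Genes for proteins that work with these RNAs were compared next. Their counts stand beside the shares of all genes given above, 16.7% lower and 1.40% higher in XX against XO, 4.39% lower in XX against XY, and 8.24% lower and 1.69% higher in XY against XO. Counts with TMM factors stand beside other shares. These were 7.86% lower and 4.38% higher in XX against XO, and 2.47% lower and 2.67% higher in XX against XY. In XY against XO they were 5.69% lower and 3.33% higher. Of 10 tested proteins of snoRNA particles and their assembly, 1 was higher in XX than in XO and 2 were lower. The higher one was Nufip1, an assembly factor (0.77, SE 0.33), and the lower ones were Nhp2 (-3.05, SE 1.10) and Snu13 (-1.52, SE 0.57), which bind H/ACA and C/D snoRNAs respectively. Nhp2 had only 1, 3 and 8 UMIs in XX and 2, 23 and 37 in XO. In XY against XO, Snu13 was lower (-1.40, SE 0.57) and 0 were higher, and 0 were called between XX and XY. With TMM factors Snu13 was not called in XX against XO (-1.07), and Nop10, an H/ACA protein (0.83 and 0.74), and Nufip1 (1.14 and 0.79) were called higher than in XO in XX and in XY respectively. Of 10 nonsense-mediated decay genes, 1 was lower in XX than in XO, Rbm8a of the exon junction complex (-1.13, SE 0.41), and 2, Rbm8a (-1.13) and Upf3b (-1.36), were lower in XY than in XO. With TMM factors Rbm8a was not called in XX against XO (-0.70), both stayed called in XY against XO (-0.87 and -1.13), and Upf3b was higher in XX than in XY (1.06).

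Among 11 paraspeckle protein genes, Hnrnpk was lower in XX than in XO (-0.87, SE 0.30), and it and Nono were lower in XY than in XO (-0.75 and -1.36). With TMM factors 0 of the 11 were called in any of the 3 comparisons. Among 9 nuclear speckle protein genes, 3 were lower in XX than in XO, namely Pnn (-1.17, SE 0.27), Ddx39b (-4.98, SE 1.59) and Acin1 (-1.05, SE 0.45). Ddx39b had 0, 2 and 6 UMIs in XX, 0, 44 and 115 in XO and 0, 8 and 22 in XY, so its large fold change sets 2 XO pools against counts near 0. Acin1 had 9, 7 and 14 UMIs in XX and 7, 17 and 15 in XO. Pnn, a splicing-associated protein, had 21.4, 16.1 and 18.0 normalized CPM in XX and 35.7, 39.3 and 49.7 in XO, without overlap. The same 3 were lower in XY than in XO (-0.97, -3.15 and -1.20), and Srrm1 was lower in XX than in XY (-0.59, SE 0.25). With TMM factors Pnn and Ddx39b stayed called in XX against XO and Acin1 did not, Pnn and Acin1 stayed called in XY against XO and Ddx39b did not, and Srrm1 was not called (-0.41). Of 7 tested genes for processing the end of Malat1, 2 were lower in XX than in XO, both RNase P subunits. Pop4 had 85, 58 and 178 UMIs in XX, 47, 402 and 553 in XO and 42, 96 and 276 in XY, with the low XO replicate 1 that Malat1 also had, and differed by -2.37 (SE 0.85, edgeR adjusted p = 0.223). Rpp14 differed by -0.76 (SE 0.33), and it was not called with TMM factors (-0.36). In XY against XO both were lower, Pop4 (-2.02, SE 0.84) and Rpp14 (-0.92, SE 0.33), and both stayed called with TMM factors (-1.77 and -0.70), while 0 of 7 were called between XX and XY.

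These protein lists depended on the scaling and on 1 pool. With spike-in totals, 1 gene of the 5 lists was called in the 3 comparisons, Ddx39b, lower in XX than in XO, and each list's median between XX and XO turned positive, 0.20 to 0.50 beside 0.42 for all genes. Without XO replicate 1, which admits 1 more gene to the snoRNA particle list and 1 more to the Malat1 end list, the counts lower in XX than in XO became 6 of 11 for snoRNA particles, 5 of 10 for nonsense-mediated decay, 3 of 11 for paraspeckles, 5 of 9 for speckles and 4 of 8 for the Malat1 end, with 0 higher, beside 34.2% of all genes lower.

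**Figure D4:**
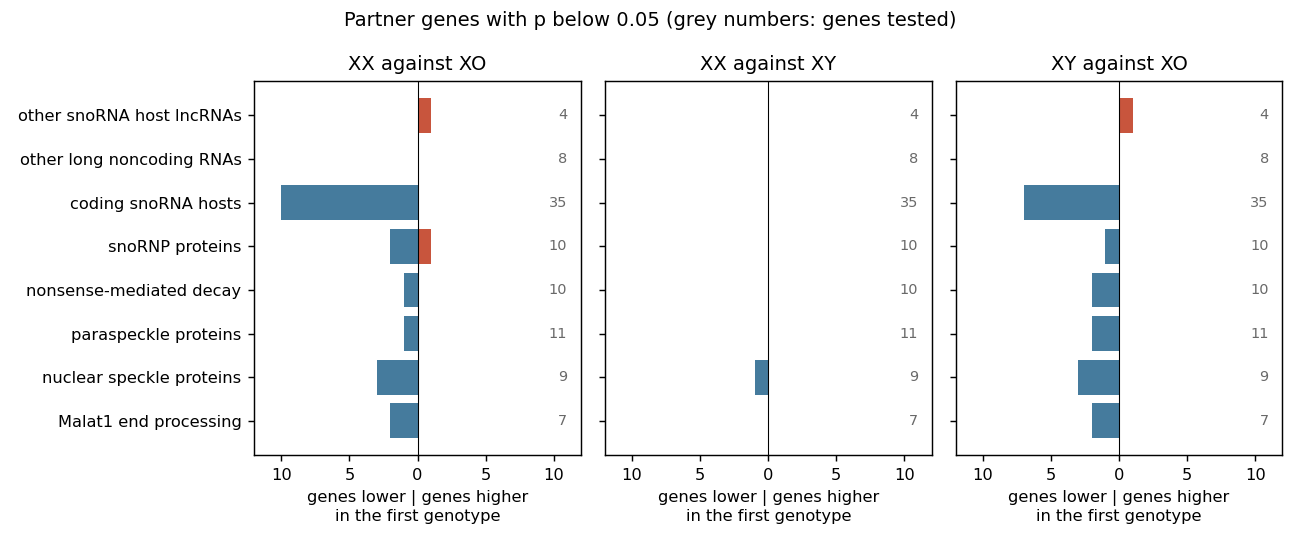
Number of genes in 8 partner lists that were called higher (red, right) or lower (blue, left) in the first genotype named, at an unadjusted edgeR p below 0.05 with spike-in factors. Grey numbers give the genes tested in each list. Coding snoRNA hosts gave 10 lower in XX against XO, 0 in XX against XY and 7 in XY against XO.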

How the data were processed

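Smart-seq3 libraries of 9 oocyte pools were sequenced, and the authors aligned reads with HISAT2 to GRCm38 (mm10) and counted UMIs per gene. The deposited counts are whole, unnormalized UMI counts. The authors' second matrix holds normalized CPM, a signal made by dividing counts by library totals and spike-in TMM factors. Its values equalled the counts times 1 factor per pool to a relative difference of 5.78e-15. Those factors matched the ones computed from library totals and spike-in TMM to 8.88e-16. One XO column lacks a replicate number and was taken as XO replicate 1 from its label. The members and gene lists were chosen with earlier results of these data known. Counts were fitted with edgeR 4.0.16 in R 4.3.3 (glmQLFit, glmQLFTest, two-sided), 1 mean per genotype over 9 pools, after filterByExpr (10993 genes). Named from each list were the members and at most 4 called genes of smallest p. The deposited log2 matrix, from which the authors regressed batch effects, served only to recover 2 components used as covariates. Alternatives were TMM on the genes, spike-in totals, no filter, a replicate block, leaving out pools, DESeq2 1.42.0 and limma 3.58.1 on log2(normalized CPM + 1). Same-numbered XO and XY pools deviated together from their group means (r = 0.830, 0.278 and 0.773), whereas XX replicate 2 did not follow XO (-0.447) or XY (-0.0595). Some pools of unlike number also deviated together, such as XO replicate 2 with XY replicate 3 (0.721) and XX replicate 2 with XO replicate 1 (0.526). Others were opposed, such as XO replicate 1 and XY replicate 3 (-0.824). Whether pools of the same number share a batch was not tested. The blocked fit called 16.6% of all genes between XY and XO and none of the 5 tested members. The edgeR step was tested on simulated data.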

Additional observations from a re-analysis of the deposited data

How the results depend on the processing

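Percentages in brackets are the shares of all genes tested that were called in the same fit. The members called between XX and XO, 2, fell to 0 with spike-in totals (3.12%). They fell to 1 with no filter (14.1%), with only the 2 genotypes compared (13.9%) or with limma (12.2%). With 1 pool or replicate number left out under either scaling they ranged from 0 to 3 (6.13% to 37.2%). Between XX and XY, 0, they were 1 with TMM on the genes (5.14%), no filter (4.33%), only the 2 genotypes (10.1%) or the replicate block with TMM (8.51%). They were 2 with DESeq2 (2.49%) and 0 to 1 with pools left out (3.14% to 11.1%). With the 2 recovered components, estimated from the same 9 pools, they were 3 (Malat1, Snhg1 and Snhg5, beside 21.8%). Between XY and XO, 0, they were 1 with no filter (9.75%) or the recovered components (10.5%) and 0 to 1 with pools left out (3.74% to 33.6%). With only these 2 genotypes 4 members were tested and 0 were called (5.24%). The replicate block alone gave 2, 0 and 0 and changed no call of a member. Uncalled fold changes turned as follows. Gas5 between XX and XO was 0.33 with TMM, 0.65 with spike-in totals, 0.12 with the components, 0.35 with the block and TMM, 0.32 with DESeq2 and -0.37 to 0.54 with pools left out. Gas5 between XX and XY was 0.00445 with TMM, 0.45 with spike-in totals, 0.011 with the block and TMM, and -0.31 to 0.14 with pools left out, and between XY and XO -0.12 to 0.53. Snhg1 between XX and XO was 0.55 with spike-in totals, 0.17 with the components, 0.16 with the block and TMM, and -0.63 to 0.87 with pools left out. Without pools Snhg1 ranged from -0.025 to 0.73 (XX to XY) and -0.90 to 0.52 (XY to XO), Snhg3 from -0.23 to 1.48, -0.24 to 0.62 and -0.32 to 1.20 in the 3 comparisons, and Snhg5 from -0.042 to 0.58 (XY to XO). The causes were not tested. Under none of these settings did Malat1 or Snhg5 between XX and XO change sign. Leaving out pools under TMM, the block with TMM, and leaving out all replicates numbered 1 were added after seeing the data. With 3 pools a genotype and 2 to 29 UMIs in all, Neat1, Snhg6, Snhg8 and Snhg12 did not pass the count filter. Why their counts are low was not tested.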
